A study of Mus musculus with 12 samples.

Results

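The transcripts that pressure overload moved the same way on 2 diets were examined in mouse heart, by joining a table of transverse aortic constriction (TAC) against sham surgery on a control diet with the same comparison on a diet without branched-chain amino acids (BCAA). Genes were joined by identifier, and the TAC effect was taken as the mean of the log2 differences between TAC and sham on the 2 diets. The tables had 15215 genes in common, of 16145 found in either, and 15088 of them had a mean value of at least 10 in both tables and were tested. All groups were hearts of male C57Bl/6J mice aged 12 weeks, with sham and TAC surgery on each diet and 3 samples in each of the 4 groups. The control diet held all essential amino acids, the other lacked leucine, isoleucine and valine, and each was started 4 days before surgery and kept until the hearts were taken 2 weeks after it. PolyA RNA was sequenced, and the deposited value is a read count of a gene divided by a size factor of its library, called a normalized read count here. The labels name neither the hour of collection nor whether hearts were pooled, so p-values reflect the spread among these samples alone, which may be technical.

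TAC narrows the aorta, so the left ventricle has to eject against a raised load. Heart muscle cells are known to enlarge under such a load and to switch on genes of the fetal heart, among them natriuretic peptides, skeletal alpha-actin and beta-myosin, while fibroblasts lay down collagen and other matrix proteins. Genes of fatty acid oxidation, the main fuel pathway of the adult heart, are known to be expressed less as the load persists.

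Libraries held between 13848953 and 52059546 reads over the genes of their table. Because the 2 tables were normalized separately, every TAC effect below is a difference within one diet, and levels are not compared between diets. All 12 cardiomyocyte markers were found in all 12 libraries. Their summed values were 2737290 to 2798550 in control diet sham and 2054020 to 2473770 in control diet TAC, against 3149750 to 3426390 in BCAA-free sham and 3474920 to 3584260 in BCAA-free TAC samples, so that TAC samples were lower on the control diet and higher on the other, without overlap. The part of this sum in the results below was not tested. None of the 6 lymphocyte markers was at 0, although their sum did not pass 414 in any library. In whole-heart RNA, a change in the number of cells of a type and a change in RNA per cell cannot be told apart.

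The average effect of pressure overload was called, with the same sign on both diets, for 1244 genes, 762 upward and 482 downward. These are 8.24%, 5.05% and 3.19% of the genes tested, and each had an adjusted p under 0.05 for the average effect in limma, a linear model with moderated variances, fitted to log2 of the value plus 1 in all 12 libraries. In all, 1356 genes (8.99%) passed the test for the average, 826 up (5.47%) and 530 down (3.51%), and 112 of them had opposite signs on the 2 diets. Averaging favours genes with 1 sign, so the share with the same sign among called genes is no measure of likeness between the diets. A change on each diet taken alone was not required, so a called gene could be near 0 on 1 of them. Col4a1, for example, had log2 fold changes of 1.27 on the control and 0.010 on the BCAA-free diet. Rises had a median log2 fold change of 0.73 on the control and 0.32 on the BCAA-free diet, and falls of -0.48 and -0.33, against -0.0096 and 0.0021 over all genes tested. The control diet had the larger change in 655 of the 762 rises, or 86.0%, and in 317 of the 482 falls, or 65.8%, and the difference between diets itself passed the test for 75 and 27 of them, where 8.72% of all genes did. Of the rises, 113 averaged at least 1 on the log2 scale, against 14 of the falls.

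**Figure D1:**
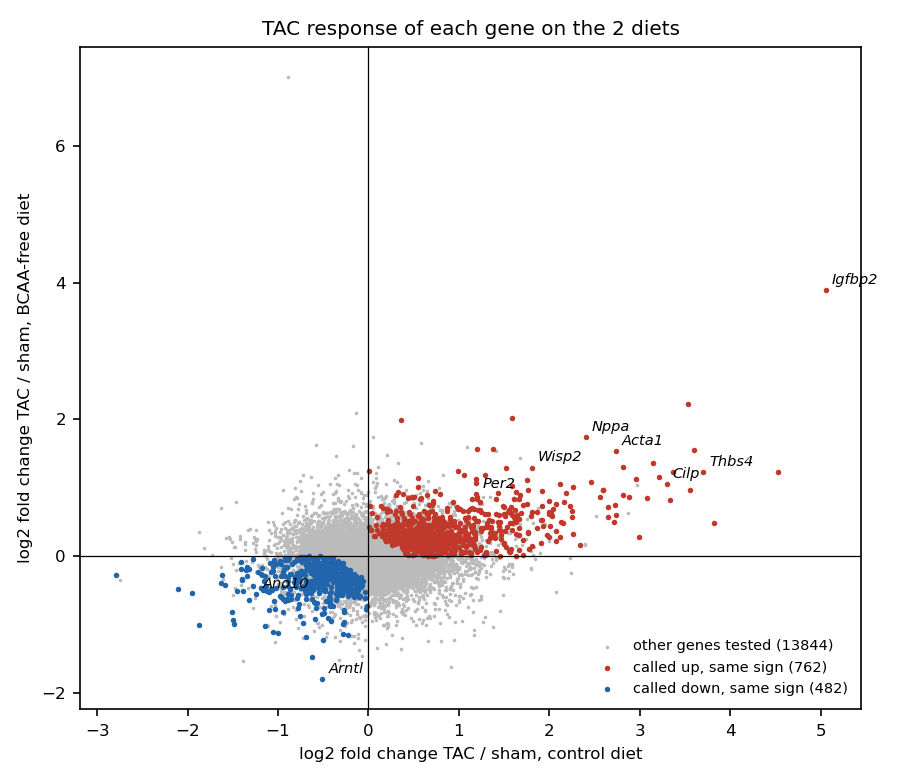
Each point is 1 of 15088 genes, with its log2 fold change of TAC over sham on the control diet (horizontal axis) and without BCAA (vertical axis). The 762 genes called up with the same sign (red) stretch farther along the horizontal than along the vertical axis, and the 482 called down (blue) lie closer to 0.

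The shared response stood on a background in which the diets had little in common. Over all genes tested, 49.1% had the same sign on both diets, and the log2 fold changes correlated across genes with a Pearson r of 0.16 and a Spearman rho of 0.040, given as a description because genes are not independent. All 3 TAC samples lay on the same side of all 3 sham samples on both diets for 752 genes (4.98%), 434 above (2.88%) and 318 below (2.11%), whereas 906 genes (6.0%) were separated in opposite ways on the 2 diets. With the trend of each library over transcript length and GC content removed, the same-sign share was 54.4%, and 806 genes were separated the same way against 526 in opposite ways. The called rises had a median GC content of 54.5% and the called falls of 46.1%, against 49.8% over all genes tested. After the same removal 577 of the rises and 363 of the falls were still called.

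Each diet's libraries also served to look up genes that the other diet's libraries had called, with a separate limma fit of the 6 libraries of each table. These fits called 621 genes (4.12%) on the control and 1012 (6.71%) on the BCAA-free diet. Of 447 genes called up on the control diet (2.96%), 286 or 64.0% were also higher after TAC on the BCAA-free diet, where 50.4% of all genes were, and 127 or 28.4% had all 3 TAC samples above all 3 sham samples there, as 14.9% of all genes did. Genes called down on the control diet, 174 in all (1.15%), were lower on the BCAA-free diet in 46.6% of cases, against 49.6% of all genes, and 29 of them or 16.7% were separated downward, as 15.3% of all genes were. In the other direction, 222 of the 541 genes called up on the BCAA-free diet (3.59%) were also higher on the control diet, or 41.0% against 48.9% of all genes, and 110 or 20.3% were separated upward there, against 17.5%. Of the 471 called down (3.12%), 256 were also lower, or 54.4% against 51.1%, and 70 or 14.9% were separated downward, against 17.7%. Both separate fits called 54 genes the same way, 42 up, which is 9.40% of the control diet's and 7.76% of the BCAA-free diet's rises, and 12 down, which is 6.90% and 2.55% of the falls. This overlap was 10 genes after removal of the GC and length trend. It was 49 to 70 without BCAA-free TAC replicate 1, BCAA-free sham replicate 3 or control diet TAC replicate 1, and 1 to 35 without any of the other 9 libraries, with the lowest count without control diet sham replicate 2. The authors' deposited tables, with their own tests, called 181 genes the same way on both diets, 135 up and 46 down, and 125 in opposite ways.

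Natriuretic peptide and fetal contractile genes were among the leading rises. Leading rises and falls were picked among genes whose TAC and sham samples did not overlap on either diet. For a leading gene the lack of overlap reported here and below therefore follows from that choice. The list of the hypertrophy and fetal program had 7 rises and 1 fall in 20 measured genes, where 5.05% of all genes tested rose and 3.19% fell. Its median log2 fold change was 0.90 on the control and 0.19 on the BCAA-free diet. The rises were Nppa, Nppb, Acta1, Myh7, Ankrd1, Ankrd23 and Xirp2, and the fall was Mef2a (-0.30 on average, adjusted p = 0.0259), which encodes a transcription factor of muscle genes. There were 4 rises without BCAA-free TAC replicate 3 and at most 9 without another library.

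Acta1 encodes skeletal alpha-actin, an actin of the fetal heart, and lies on chromosome 8, 123891769 to 123894751 (GRCm38). On the control diet it had normalized read counts of 10652, 6745 and 14828 in sham and 46340.2, 84862 and 79759.6 in TAC samples. Without BCAA the counts were 5009, 5123 and 3700.0 in sham and 13887, 11724 and 14050.0 in TAC samples. Every TAC sample lay above every sham sample of its diet, and the 3 TAC samples of the BCAA-free diet were close together. The average log2 fold change was 2.13 ± 0.20 (SE), a 4.38-fold rise with an adjusted p of 0.00117, and the call held in all 12 fits that left out 1 library. It was 2.73 ± 0.28 on the control and 1.53 ± 0.28 on the BCAA-free diet, a difference that missed the threshold (adjusted p = 0.0784).

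Nppa, the gene of atrial natriuretic peptide, read 8256, 3081 and 11951 in sham and 22999, 86226 and 22651 in TAC samples of the control diet. Without BCAA it read 10397, 8706 and 5599 in sham and 16211, 28291 and 41234 in TAC samples. TAC and sham did not overlap on either diet, but the TAC samples spread widely, and control diet TAC replicate 2 and BCAA-free TAC replicate 3 were the highest of their groups. The average was 2.07 ± 0.46 (adjusted p = 0.0287), and the call was lost without control diet sham 2 or TAC 2 and without BCAA-free sham 2 or 3 or TAC 2 or 3, with an adjusted p of up to 0.0761. Nppa is also a marker of atrial tissue: the 12 atrial and valve markers summed to between 11001 and 25808 in control diet sham, 31310 and 95194 in control diet TAC, 13809 and 26208 in BCAA-free sham and 30810 and 69062 in BCAA-free TAC samples, and their part in the result was not tested. Apart from Nppa, Nr2f2 was the one called member of that list.

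Nppb, which encodes brain natriuretic peptide and is the neighbour of Nppa on chromosome 4, read 5192, 3909.8 and 10394 in sham and 13466, 25351 and 17636 in TAC samples on the control diet. The values on the BCAA-free diet were 5476, 4009 and 3509 in sham and 7379, 6493 and 9056 in TAC samples. The groups did not overlap on either diet, and the average was 1.22 ± 0.25 (adjusted p = 0.0197, lost at 0.0554 without BCAA-free TAC replicate 3). Ankrd1, a stretch-responsive ankyrin repeat protein of the sarcomere and nucleus, read 22104, 19001 and 25709 in sham and 55800.5, 134538 and 78006 in TAC samples on the control diet. It read 38012, 36101 and 22622 in sham and 53186, 48633 and 54723 in TAC samples on the BCAA-free diet, again without overlap, and averaged 1.32 ± 0.20 (adjusted p = 0.00637). Myh7, the beta-myosin heavy chain, read 16458, 18944 and 13969.6 in sham and 50308, 141282 and 40200.4 in TAC samples on the control diet, and 31236, 31472 and 25489.8 in sham and 37643, 42546 and 55723 in TAC samples on the BCAA-free diet. The groups did not overlap, and it averaged 1.31 ± 0.27 (adjusted p = 0.0217, lost at 0.0575 without BCAA-free TAC replicate 3). Its locus also holds the antisense RNA Mhrt, and the strandedness of the counting is not given in the sources used here, so reads of the pair may be mixed.

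The promoters of 3 of these genes are shown because they hold the muscle CAT motif, known as the binding motif of TEAD transcription factors, within the 250 bases before the RefSeq start (GRCm38.p6). The motif is CATTCC, or GGAATG on the opposite strand, in capitals below. It was found in 11.1% of the 13911 promoters of that length that belong to tested genes, and its presence is a description of the sequence, not evidence of binding. In Acta1 (chr8:123894776-123895025, minus strand) the motif begins 46 bases before the start, in Nppb (chr4:147985650-147985899, plus strand) 105 bases before, and in Ankrd1 (chr19:36119845-36120094, minus strand) 210 and 123 bases before.
Acta1: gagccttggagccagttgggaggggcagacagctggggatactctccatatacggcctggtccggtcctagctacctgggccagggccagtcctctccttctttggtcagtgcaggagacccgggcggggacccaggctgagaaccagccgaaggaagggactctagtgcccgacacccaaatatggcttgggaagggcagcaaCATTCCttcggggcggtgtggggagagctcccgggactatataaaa
Nppb: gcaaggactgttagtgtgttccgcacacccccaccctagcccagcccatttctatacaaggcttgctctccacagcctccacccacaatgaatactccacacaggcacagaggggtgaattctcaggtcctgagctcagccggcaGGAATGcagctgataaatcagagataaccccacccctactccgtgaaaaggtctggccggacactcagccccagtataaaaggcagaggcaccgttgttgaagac
Ankrd1: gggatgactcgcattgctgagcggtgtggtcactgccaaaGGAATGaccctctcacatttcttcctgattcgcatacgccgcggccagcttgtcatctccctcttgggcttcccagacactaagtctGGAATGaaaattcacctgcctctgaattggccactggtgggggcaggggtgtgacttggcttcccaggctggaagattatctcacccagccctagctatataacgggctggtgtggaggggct

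Of 12 marker genes of pressure overload, 9 had an exact two-sided permutation p under 0.05 when sham and TAC labels were permuted within each diet, which gives 400 relabellings and a smallest p of 0.005. Nppa, Nppb, Acta1, Myh7, Ankrd1, Postn, Col1a1 and Col3a1 reached that smallest p (0.0075 adjusted over the 12). Atp2a2, which pumps calcium back into the sarcoplasmic reticulum, had an average of -0.35 with an exact p of 0.04 (adjusted 0.0533). The remaining 3 were Rcan1 at 0.43 (exact p = 0.085), Ctgf at 0.64 (exact p = 0.155) and Myh6, the adult alpha-myosin, at -0.11 (exact p = 0.305).

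Genes of the extracellular matrix made up the broadest shared rise among the lists. Of 44 measured matricellular and secreted matrix genes 30 rose and none fell (none also at an unadjusted p under 0.05 and by edgeR and DESeq2), with a median of 1.37 on the control and 0.33 on the BCAA-free diet. In 37 of the 44 both diets had a positive log2 fold change, and in 21 no sham sample reached a TAC sample of either diet, as for 2.88% of all tested genes. The number of rises was between 16 and 31 when 1 library was left out, with 16 without BCAA-free TAC replicate 3, 18 without control diet sham replicate 2 and 19 without BCAA-free TAC replicate 2, and 14 genes were called in all 12 such fits.

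Thbs4 encodes thrombospondin 4, a secreted protein of stretched tissue (chromosome 13, 92751590 to 92794818). It read 178, 182 and 169 in control diet sham and 1623, 6601 and 1136 in control diet TAC samples. In BCAA-free samples it read 244, 325 and 236 in sham and 406, 519 and 1153 in TAC samples. TAC lay above sham on both diets, by 3.70 ± 0.60 on the control and 1.23 ± 0.60 on the BCAA-free diet, and the average of 2.46 ± 0.43 had an adjusted p of 0.0144. The highest value of each TAC group again belonged to replicate 2 on the control and replicate 3 on the BCAA-free diet.

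Cilp, a secreted matrix protein of cartilage and of activated cardiac fibroblasts (chromosome 9, 65265180 to 65280605), read 432, 369 and 484 in sham and 3050.0, 10668 and 2258 in TAC samples on the control diet. On the BCAA-free diet it read 514, 640.4 and 474 in sham and 774, 1046 and 1715 in TAC samples. The groups did not overlap, and the average was 2.17 ± 0.37 (adjusted p = 0.014). Mfap4, a microfibril-associated glycoprotein, read 368, 308 and 471 in sham and 1677, 4579 and 1177 in TAC samples on the control diet. It read 304, 367 and 277 in sham and 547, 509 and 1071 in TAC samples on the BCAA-free diet, with an average of 1.78 ± 0.33 (adjusted p = 0.017). Postn, the matricellular protein periostin, read 1120.1, 863 and 1238 in sham and 5586, 22994 and 5654 in TAC samples on the control diet and 1128, 1031 and 802 in sham and 1379, 1478 and 2665 in TAC samples on the BCAA-free diet. Its average was 1.96 ± 0.36 (adjusted p = 0.017), and no sham sample reached a TAC sample of its diet.

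Wisp2, a CCN family protein, read 175, 155 and 238 in sham and 496, 1497 and 374 in TAC samples on the control diet, and 229.8, 266 and 126 in sham and 439.7, 503 and 516 in TAC samples on the BCAA-free diet. The log2 fold changes were 1.81 ± 0.46 and 1.29 ± 0.46, the difference had an adjusted p of 0.64, and the average of 1.55 ± 0.33 (adjusted p = 0.0225) lost its call without BCAA-free TAC replicate 2 or 3 or control diet sham replicate 2. Further rises of the list included tenascin C, Tnc (2.08, adjusted p = 0.0121), osteopontin, Spp1 (1.78, 0.00876), the collagen triple helix repeat protein Cthrc1 (2.88, 0.0131) and Sparc (1.10, 0.00876). Each of these 4 was called in all 12 fits that left out 1 library.

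**Figure D2:**
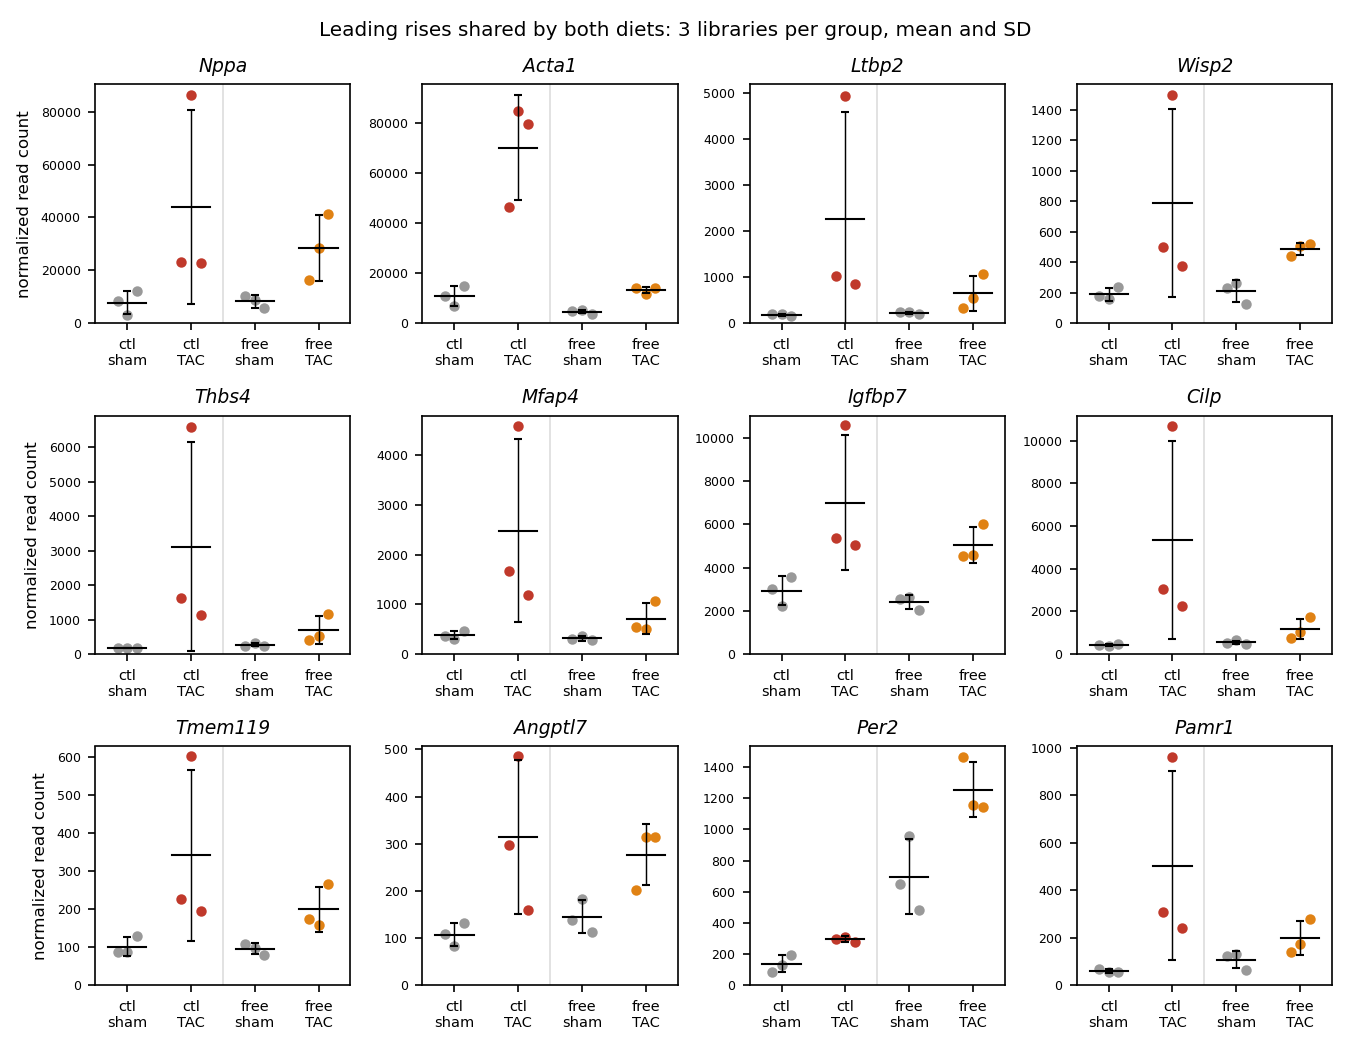
Normalized read counts of the 12 leading rises in each of 3 libraries per group, with the mean and SD; ctl is the control diet and free the BCAA-free diet, and each panel has its own vertical axis from 0. In every panel the TAC points lie above the sham points of the same diet, as the choice of leading genes required. Control diet TAC replicate 2 is the highest of its group in all 12 panels.

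Outside that list, the leading rises held further secreted and membrane genes. Ltbp2, a latent TGF-beta binding protein of elastic microfibrils, read 202, 188 and 158 in sham and 1009.7, 4926 and 855 in TAC samples on the control diet. Without BCAA it read 234, 237 and 196 in sham and 326, 534 and 1071 in TAC samples, and its average was 2.26 ± 0.45 (adjusted p = 0.021, lost at 0.055 without BCAA-free TAC replicate 3). Pamr1, which encodes a secreted peptidase-domain protein, read 68.8, 52.8 and 53.7 in sham and 308, 960.2 and 241 in TAC samples on the control diet. It read 123, 130.2 and 64.9 in sham and 140.4, 173 and 280.0 in TAC samples on the BCAA-free diet, where the lowest TAC sample stood just above the highest sham sample, and it averaged 1.86 ± 0.33 (adjusted p = 0.0116). Tmem119, a membrane protein known from osteoblasts and microglia, averaged 1.31 ± 0.25 (adjusted p = 0.014), and Angptl7, a secreted angiopoietin-like protein, 1.18 ± 0.24 (adjusted p = 0.0166, lost at 0.0526 without BCAA-free TAC replicate 3). TAC and sham did not overlap on either diet for any of the 4.

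Collagen chains rose with 16 of 23 measured genes and no fall (1 at an unadjusted p under 0.05, 1 by DESeq2 and none by edgeR), with medians of 1.40 on the control and 0.31 on the BCAA-free diet. Col3a1, a fibrillar chain, read 5697, 4470.3 and 4192 in sham and 13934, 40703 and 16746 in TAC samples on the control diet, and 2463, 1786 and 2061 in sham and 2756, 3362 and 5125 in TAC samples on the BCAA-free diet. Every TAC sample was above every sham sample of its diet, and the average was 1.48 ± 0.26 (adjusted p = 0.0141). Col1a1, the chain of type I collagen, averaged 1.48 ± 0.34 (adjusted p = 0.0312), with values of 2377, 2789.9 and 1496 in sham and 6259.6, 22608 and 7241 in TAC samples on the control diet and 1682, 1731 and 1984 in sham and 2018, 2958 and 4409.7 in TAC samples on the BCAA-free diet. Its call was lost in 6 of the 12 fits that left out 1 library: BCAA-free sham 1, 2 or 3, BCAA-free TAC 2 or 3, or control diet sham 2. The basement membrane chain Col18a1 (1.08, adjusted p = 0.00943) and the short chain Col8a1 (1.66, 0.014) were called in all 12. Without BCAA-free TAC replicate 3, 7 collagen chains rose.

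Among the enzymes that process and cross-link collagen, the proteoglycans that bind it and the proteases that cut matrix there were rises and no falls. Collagen processing and cross-linking genes rose in 10 of 24 cases, small leucine-rich proteoglycans in 5 of 11 and matrix proteases and their inhibitors in 8 of 31, with no falls (none at an unadjusted p under 0.05 and by edgeR and DESeq2). When 1 library was left out the counts were 4 to 14, 3 to 6 and 6 to 11. Collagen processing genes rose in 4 cases without BCAA-free TAC replicate 3, 5 without TAC replicate 2 and 6 without sham replicate 2 of the same diet, and the proteoglycans in 3 without BCAA-free TAC replicate 3. Adamts2, which removes the N-terminal propeptide of procollagen, read 844, 841 and 679.7 in sham and 1777, 3933 and 1722 in TAC samples on the control diet, and 703, 622 and 665 in sham and 888, 1033 and 1221 in TAC samples on the BCAA-free diet. It averaged 1.10 ± 0.18 (adjusted p = 0.00876) with no overlap between TAC and sham on either diet. Other called genes were the lysyl oxidase-like enzyme Loxl2 (1.14, adjusted p = 0.0159), the procollagen proteinase Bmp1 (0.54, 0.00878), biglycan, Bgn (0.98, 0.0151), and podocan, Podn (0.63, 0.00534). Podn had log2 fold changes of 0.33 on the control and 0.93 on the BCAA-free diet.

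Among the proteases and inhibitors, Timp1, an inhibitor of matrix metalloproteinases, read 49.6, 39.9 and 66 in sham and 176, 657 and 261 in TAC samples on the control diet, and 45.4, 57.3 and 32.4 in sham and 75.5, 75.6 and 113 in TAC samples on the BCAA-free diet. It averaged 1.78 ± 0.28 (adjusted p = 0.00648), and the groups did not overlap. Mmp2, gelatinase A, read 1571, 1392 and 1584 in sham and 3567, 7314 and 3481 in TAC samples on the control diet and 1305, 1158 and 1169 in sham and 1429.5, 1596 and 2112 in TAC samples on the BCAA-free diet, an average of 1.03 ± 0.17 (adjusted p = 0.00876). Cathepsin K, Ctsk (1.07, adjusted p = 0.0141), and Adamts8 (1.63, 0.011) also rose.

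TGF-beta signalling genes rose in 9 of 30 cases with medians of 0.46 and 0.13, a count that was 1 without BCAA-free TAC replicate 3, 3 without TAC replicate 2, and 4 without any of the BCAA-free sham replicates or control diet sham replicate 1. The member called in all 12 of those fits was Ltbp4, which anchors latent TGF-beta in the matrix. It read 12267, 13147 and 10079.9 in sham and 18710.5, 23663 and 18182 in TAC samples on the control diet, and 13736, 14456 and 13194 in sham and 16742, 20412 and 20216 in TAC samples on the BCAA-free diet, an average of 0.62 ± 0.09 (adjusted p = 0.00465). The ligand genes Tgfb1 (0.40, adjusted p = 0.0385), Tgfb2 (0.84, 0.0418) and Tgfb3 (0.88, 0.0253) and the receptor gene Tgfbr2 (0.33, 0.0269) passed with all libraries in. On the control and the BCAA-free diet Tgfb2 was at 1.57 and 0.10 and Tgfbr2 at 0.60 and 0.061, so these rises were mostly on the control diet.

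Fibroblast markers were divided. Of 15 markers 7 rose and none fell (1 at an unadjusted p under 0.05, none by edgeR or DESeq2), and the called markers Col1a1, Col1a2, Mfap5 and Lum are also in the matrix lists. The rises numbered 3 without BCAA-free TAC replicate 3 or control diet sham replicate 2, 4 without BCAA-free TAC replicate 2 and up to 8 without another library. Their summed values were 67658 to 77189.9 in control diet sham, 83225 to 118505 in control diet TAC, 73939 to 77293 in BCAA-free sham and 75562 to 86837 in BCAA-free TAC samples. The ranges did not overlap on the control and overlapped on the BCAA-free diet. Of the markers outside the matrix lists, Cd248 (0.72, adjusted p = 0.00637), Pi16 (0.84, 0.0125) and Medag (0.55, 0.0282) rose. The markers Pdgfra, Dcn, Ddr2, Gsn and Dpep1, none of them called, had opposite signs on the 2 diets, with 0.36 and -0.35 for Pdgfra, and Scara5 was at -0.87 and -0.12 without a call. Smooth muscle and pericyte markers rose in 5 of 15 cases (1 without BCAA-free TAC replicate 3, 3 without TAC replicate 2), with sums of 97659 to 107954 and 120907 to 157994 on the control diet and 136313 to 138432 and 145646 to 155102 on the BCAA-free diet. Their part in the matrix rises was not tested.

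**Figure D3:**
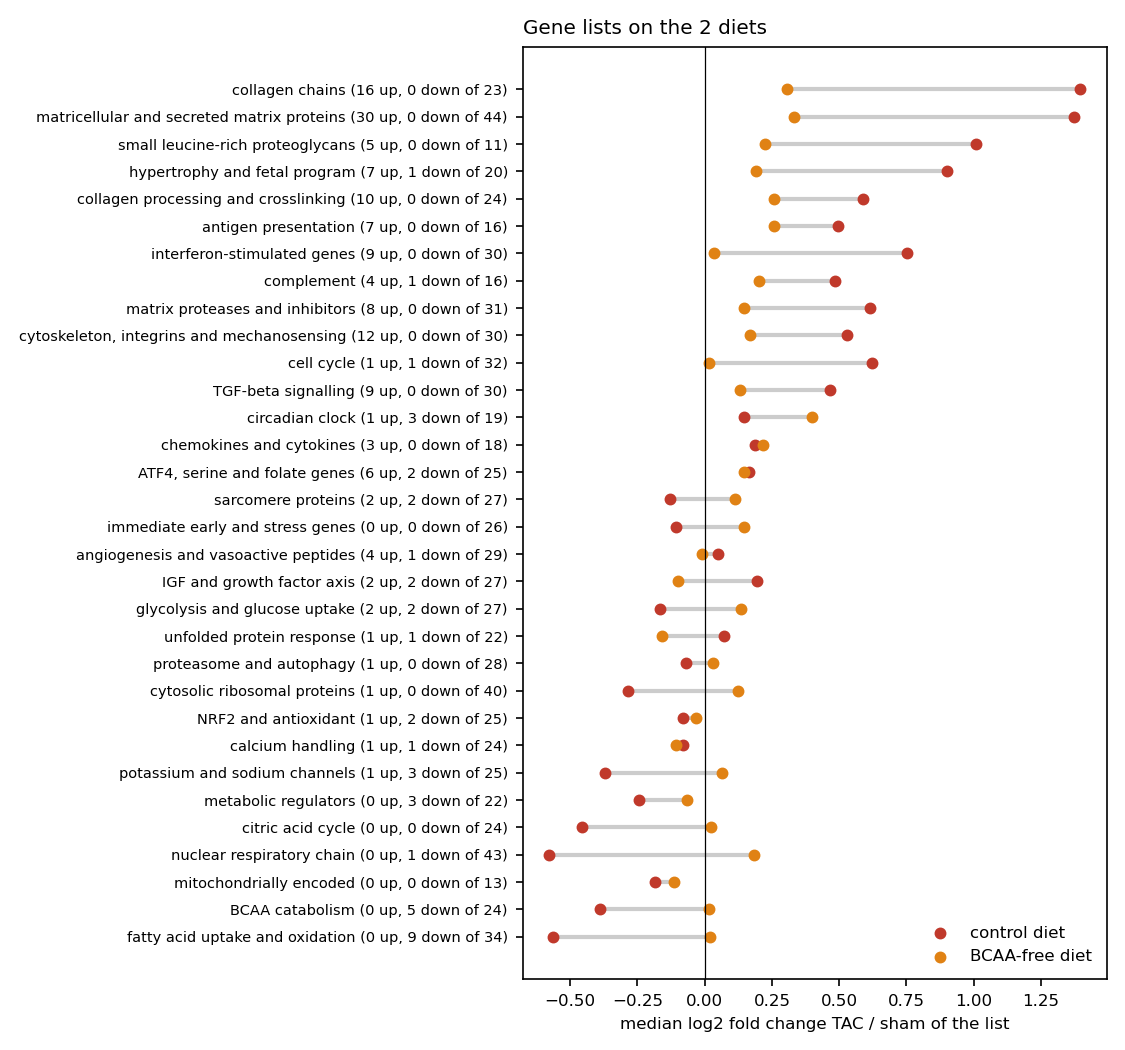
Median log2 fold change of TAC over sham of each gene list (red, control diet; orange, BCAA-free diet), ordered by the average, with the number of genes called up and down with the same sign and the number measured in parentheses. Matrix lists are positive on both diets and farther from 0 on the control diet, whereas the respiratory chain list is at -0.58 on the control and 0.18 on the BCAA-free diet.

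Cytoskeletal and adhesion genes rose in 12 of 30 cases with no fall, none also at an unadjusted p under 0.05 and by edgeR and DESeq2 (medians 0.53 and 0.17), and 25 of the 30 were higher after TAC on both diets. Synpo2l, an actin-bundling protein of the Z-disc, read 4332, 4695 and 3664 in sham and 8498, 17904 and 11349 in TAC samples on the control diet, and 5975, 6118 and 4837 in sham and 7435, 8969 and 9091 in TAC samples on the BCAA-free diet. It averaged 1.05 ± 0.15 (adjusted p = 0.00534), with TAC above sham throughout. Zyx, the focal adhesion protein zyxin, read 1641, 1749 and 1908 in sham and 2298, 3632 and 2286 in TAC samples on the control diet and 1791, 1648 and 1748 in sham and 2453, 2335 and 2783 in TAC samples on the BCAA-free diet. Its log2 fold changes were 0.60 ± 0.15 and 0.54 ± 0.15, with a difference of -0.058 ± 0.21 (adjusted p = 0.881). The integrin subunit gene Itga5 (0.53, adjusted p = 0.00656) and filamin C, Flnc (0.56, 0.0139), rose as well. The count was 6 without BCAA-free TAC replicate 3, 7 without BCAA-free sham replicate 1 or 2 and up to 14 without another library.

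Sarcomere, calcium handling and ion channel genes had shared rises as well as falls, where 5.05% of all genes tested rose and 3.19% fell. The rises and falls were 2 and 2 of 27 sarcomere, 1 and 1 of 24 calcium handling and 1 and 3 of 25 channel genes. Of 27 sarcomere genes Mybpc3, the cardiac myosin-binding protein (0.31, adjusted p = 0.0194), and Tpm2, beta-tropomyosin (0.49, 0.0115), rose, and Nebl (-0.29, 0.0394) and the myosin light chain kinase Mylk3 (-0.26, 0.027) fell. With scaling to library totals alone, 5 sarcomere genes rose and none fell. Among 24 calcium handling genes Pln, phospholamban, which restrains the calcium pump, fell (-0.37, adjusted p = 0.0226) and Casq1 rose (0.31, 0.0428). Of 25 potassium and sodium channel genes, Kcnd3 (-0.38, 0.0215) and its accessory subunit Kcnip2 (-0.37, 0.026), which carry the transient outward potassium current, fell, as did Kcnj2 (-0.50, 0.04), which carries the inward rectifier. Channel falls numbered 0 without BCAA-free TAC replicate 3, 1 without BCAA-free TAC replicate 2 or any BCAA-free sham replicate, and 6 without control diet TAC replicate 1 or sham replicate 3. Of the 9 genes named here, Tpm2 was called in all 12 fits that left out 1 library.

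In the insulin-like growth factor axis the binding protein genes Igfbp7 and Igfbp2 were higher after TAC on both diets. Igfbp7, a secreted binding protein (chromosome 5, 77349240 to 77408041), read 2998, 2244 and 3572 in sham and 5373, 10620.3 and 5039.9 in TAC samples on the control diet, and 2553, 2632 and 2037 in sham and 4522, 4585 and 6003 in TAC samples on the BCAA-free diet. TAC lay above sham on both diets by 1.19 ± 0.26 and 1.06 ± 0.26, and the average was 1.13 ± 0.19 (adjusted p = 0.00876). Of the 12 leading rises Igfbp7 had the smallest difference between diets, -0.13 ± 0.37 (adjusted p = 0.848). The list of the axis has 27 measured genes, with Igfbp7 but without Igfbp2. In it 2 genes rose and 2 fell, where 5.05% of all genes tested rose and 3.19% fell. Besides Igfbp7, Igfbp6 rose (0.49, adjusted p = 0.0392) and Irs1, the insulin receptor substrate (-0.72, 0.0363), and Fgf1 (-0.21, 0.039) fell. The calls of Igfbp6, Irs1 and Fgf1 were lost in most of the fits that left out 1 library.

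Igfbp2, another binding protein of the axis (chromosome 1, 72824503 to 72852474), was named after its values were seen, because its mean is under the 100 set for leading genes. It held 1, 3 and 2 reads in control diet sham and 90, 140 and 150 reads in control diet TAC samples. Without BCAA it held 11, 1 and 3 reads in sham and 54, 63 and 120 reads in TAC samples. In normalized read counts these are 0.870, 3.87 and 2.75 in sham and 99, 151 and 81.9 in TAC samples on the control diet, and 7.80, 2.60 and 2.12 in sham and 52.3, 51.8 and 114 in TAC samples on the BCAA-free diet. Every TAC sample was above every sham sample, and the adjusted p for the average was 2.34e-05 with all libraries and at most 2.46e-04 without any 1 of them. A fold is not given because 5 of the 6 sham libraries hold 3 reads or fewer. The sham values of Igfbp2 are all under the minimum mean value set for testing, so Igfbp2 was tested because of its TAC values. A further test was chosen after the data were seen. It required a gene to pass in both diets at once, by the larger of its 2 p-values in the 12-library fit. Igfbp2 was the 1 gene of 15088 that passed (adjusted p = 0.0121). This p-value and the one for the average rest on sham levels set by few reads.

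Among vasoactive genes, Edn3 and Ace rose. Of 29 genes of angiogenesis and vasoactive peptides 4 were called up and 1 down, where 5.05% of all genes tested rose and 3.19% fell. The rises numbered 2 without BCAA-free TAC replicate 2 or 3, BCAA-free sham replicate 1 or 3 or control diet TAC replicate 2. Edn3, an endothelin peptide, read 51.3, 51.5 and 50.9 in sham and 163, 151 and 171 in TAC samples on the control diet, and 36.9, 18.2 and 35.3 in sham and 53.3, 47.7 and 68.6 in TAC samples on the BCAA-free diet. The groups did not overlap and were tight on the control diet, and the average was 1.28 ± 0.17 (adjusted p = 0.00361). Ace, the angiotensin-converting enzyme, read 1932, 1898 and 1662 in sham and 3213, 5775 and 3629.8 in TAC samples on the control diet and 1945, 2028 and 1722 in sham and 2312, 2572 and 2942 in TAC samples on the BCAA-free diet, an average of 0.80 ± 0.12 (adjusted p = 0.00534). By limma none of the 16 endothelial markers was called, although 3 rose at an unadjusted p under 0.05, 1 by edgeR and 1 by DESeq2, and 5 were called without control diet sham replicate 3.

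Antigen presentation genes were higher after TAC on both diets, and some complement genes rose. All 16 measured antigen presentation genes had a higher value after TAC on both diets, with medians of 0.50 and 0.26, and 7 of them were called, among them the invariant chain Cd74 (0.63, adjusted p = 0.0188) and the class II genes H2-Aa (0.57, 0.031) and H2-DMb1 (0.72, 0.0333). The count was 1 without BCAA-free TAC replicate 3, 2 to 4 without any of 8 other libraries, 8 and 9 without TAC replicate 1 of the BCAA-free and the control diet, and 12 without control diet sham replicate 3. The peptide transporter Tap1 (0.52, adjusted p = 0.0168) was the member called in all 12 such fits. C4b, the complement component that marks targets for clearance, read 579.6, 563 and 543 in sham and 1076, 1710.2 and 1148 in TAC samples on the control diet, and 792, 888 and 718 in sham and 946, 1191 and 1308 in TAC samples on the BCAA-free diet. It averaged 0.85 ± 0.11 (adjusted p = 0.00351) with no overlap on either diet, and reads could be split with its near-identical neighbour C4a, so its value is uncertain. Of 16 complement genes 4 rose (1 without BCAA-free TAC replicate 3 or sham replicate 3, 2 without BCAA-free TAC replicate 1 or sham replicate 2, 7 without control diet sham replicate 3) and Cd59a, an inhibitor of the membrane attack complex, fell (-0.30, 0.0227). Of all genes tested 5.05% rose and 3.19% fell.

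Interferon-stimulated genes rose in 9 of 30 cases, but their median was 0.75 on the control and 0.036 on the BCAA-free diet. Ifit3, an antiviral protein, read 196, 180.4 and 271 in sham and 299, 612 and 379.5 in TAC samples on the control diet, and 157, 122 and 119.9 in sham and 176, 215 and 175 in TAC samples on the BCAA-free diet, an average of 0.73 ± 0.16 (adjusted p = 0.019). Irf7, a transcription factor of the interferon response, averaged 0.78 (adjusted p = 0.0139). Ifit3 and Irf7 were called in all 12 fits that left out 1 library, in which the list's count was 3 without BCAA-free TAC replicate 2, 4 or 5 without BCAA-free TAC replicate 3, BCAA-free sham replicate 1 or 2, control diet TAC replicate 2 or control diet sham replicate 1 or 2, and up to 13.

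Of 22 macrophage markers 5 rose and 17 were higher on both diets. Timd4 was lower on both (-0.24 on the control and -0.19 on the BCAA-free diet). Cd163, Lyve1, Folr2 and Itgam had opposite signs on the 2 diets, and none of these or Timd4 was called. Csf1r, the receptor for the main macrophage growth factor, read 1195, 1184 and 1113 in sham and 1578, 1611 and 1491 in TAC samples on the control diet, and 1050.2, 1010.1 and 1093 in sham and 1148, 1258 and 1284 in TAC samples on the BCAA-free diet. The average of 0.32 ± 0.057 (adjusted p = 0.00836) is small, but TAC and sham did not overlap on either diet. The summed values of the 22 markers were 9491 to 14689 in control diet sham, 13122 to 16250.0 in control diet TAC, 9458 to 10262 in BCAA-free sham and 10652 to 12458 in BCAA-free TAC samples. The ranges of sham and TAC overlapped on the control and not on the BCAA-free diet. Of the markers of other cells, neutrophil and mast cell markers had 1 call, Kit, lymphocyte and blood markers had none (1 each at an unadjusted p under 0.05, none by edgeR or DESeq2), and the part of cell numbers in the immune rises was not tested. Csf1r was the member called in all 12 fits that left out 1 library, in which 9 and 10 markers rose without control diet TAC replicate 1 and sham replicate 3, 4 and 5 without control diet sham replicate 1 and BCAA-free TAC replicate 1, and 1 or 2 without any of the other 8 libraries.

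Of 34 genes of fatty acid uptake and oxidation 9 fell and none rose (none also at an unadjusted p under 0.05 and by edgeR and DESeq2). The list had medians of -0.56 on the control and 0.020 on the BCAA-free diet, and 20 of the 34 had opposite signs on the 2 diets. Lpl, lipoprotein lipase, which frees fatty acids from circulating lipoproteins, read 116296, 119095 and 105324 in sham and 101960.0, 77578 and 101026 in TAC samples on the control diet, and 188514, 185383 and 196762 in sham and 143704, 145872 and 135716 in TAC samples on the BCAA-free diet. TAC lay below sham on both diets, and the average was -0.36 ± 0.081 (adjusted p = 0.0197, 0.0618 without BCAA-free TAC replicate 3). Pdk4, a kinase that shuts off glucose oxidation, read 40629.9, 39899 and 55057 in sham and 36348, 31926 and 31337 in TAC samples on the control diet and 47846, 39522 and 37341 in sham and 21477, 34709 and 24829 in TAC samples on the BCAA-free diet, an average of -0.54 ± 0.12 (adjusted p = 0.0193, 0.0573 without BCAA-free TAC replicate 3). Cd36, the fatty acid transporter, averaged -0.28 (adjusted p = 0.0394), with -0.25 on the control and -0.32 on the BCAA-free diet.

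The thioesterase Acot1 had log2 fold changes of -1.12 ± 0.25 on the control and -0.50 ± 0.25 on the BCAA-free diet, and its fall averaged -0.81 ± 0.18 (adjusted p = 0.0208, lost without BCAA-free TAC replicate 3 or control diet sham replicate 2). The trifunctional protein genes Hadha and Hadhb, which carry the last steps of beta-oxidation, passed on average at -0.34 and -0.35 (adjusted p = 0.031 and 0.0336), but on the BCAA-free diet their log2 fold changes were -0.031 and -0.11. No fatty acid gene was called in all 12 fits that left out 1 library, in which the count was 0 without BCAA-free TAC replicate 3, 3 to 5 without BCAA-free TAC replicate 2, any BCAA-free sham replicate or control diet sham replicate 2, and up to 11 otherwise. It was 15 with the GC and length trend removed. Of 22 metabolic regulators 3 fell, where 3.19% of all genes tested did. These were Ppargc1a, Ppara and Rxrg, which drive fatty acid and mitochondrial genes. Their averages were -0.64, -0.52 and -0.34 (adjusted p = 0.0347, 0.0463 and 0.0394), and the fall of Rxrg was on the control diet (-0.68 against -0.0082 on the BCAA-free diet). Without BCAA-free TAC replicate 2 or 3 or control diet sham replicate 2 none of the 3 passed, and 1 did without BCAA-free sham replicate 2 or 3 or control diet TAC replicate 2.

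Respiratory chain genes had log2 fold changes in opposite directions on the 2 diets. Of 43 nuclear genes 41 had opposite signs on the 2 diets, with medians of -0.58 on the control and 0.18 on the BCAA-free diet, and 1 of the 43, Ndufs1, fell (-0.28, adjusted p = 0.039). That call held in 3 of the 12 fits that left out 1 library (without control diet TAC replicate 1 or 3 or sham replicate 3). The count of falls was 0 with scaling to library totals alone and 7 with the GC and length trend removed. By limma none of the 24 citric acid cycle genes was called with the same sign, against 7 falls at an unadjusted p under 0.05, 6 by DESeq2 and none by edgeR. None of the 13 mitochondrially encoded genes was called either, against 3 falls at an unadjusted p under 0.05, 1 by DESeq2 and none by edgeR. Of 40 cytosolic ribosomal protein genes 31 had opposite signs, and Rpl3 was the 1 call (0.37, 0.0476), held in 3 of the 12 fits that left out 1 library (without control diet TAC replicate 1 or 3 or sham replicate 3).

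Genes of BCAA breakdown fell in 5 of 24 cases, with medians of -0.39 on the control and 0.017 on the BCAA-free diet. Acadsb, which oxidises the branched acyl-CoA made from isoleucine (chromosome 7, 131410601 to 131448944), read 3963, 3794 and 4242 in sham and 3506, 2942 and 3393 in TAC samples on the control diet, and 5328, 5756 and 5854 in sham and 4630.4, 4436 and 4256 in TAC samples on the BCAA-free diet. TAC lay below sham throughout, by -0.29 ± 0.09 on the control and -0.35 ± 0.09 on the BCAA-free diet, and the average of -0.32 ± 0.063 (adjusted p = 0.0135) was called in all 12 fits that left out 1 library. Dbt, a subunit of the branched-chain keto acid dehydrogenase, had log2 fold changes of -0.43 and -0.27 on the 2 diets, a fall of -0.35 on average (adjusted p = 0.0232). The other falls were Mccc1, Pcca and Mut, at averages of -0.26, -0.26 and -0.28. That of Mccc1 was mostly on the control diet (-0.50 against -0.025 on the BCAA-free diet). Without BCAA-free TAC replicate 2 or 3, BCAA-free sham replicate 2 or control diet sham replicate 2, 1 gene of the list was called, and 2 or 3 without any other library but control diet TAC replicate 1 (7) and sham replicate 3 (6).

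Genes of the ATF4, serine and folate list rose in 6 of 25 cases and fell in 2. The rises were the amino acid transporters Slc7a5, Slc1a4 and Slc1a5, with Mthfd1l, Aldh18a1 and Nupr1, and the falls were Aldh1l2 and Vldlr. Slc7a5, the large neutral amino acid transporter that carries BCAA, averaged 0.71 (adjusted p = 0.00955), with 1.17 on the control and 0.26 on the BCAA-free diet. The mitochondrial folate enzymes split, with Mthfd1l up (1.28, 0.022) and Aldh1l2 down (-0.73, 0.0165). The count of rises was 1 without BCAA-free TAC replicate 3 and 3 without TAC replicate 2 or sham replicate 1 or 3 of that diet, and Slc7a5 was the member called in all 12 fits that left out 1 library. In glycolysis 2 of 27 genes rose and 2 fell, where 5.05% of all genes tested rose and 3.19% fell. The rises were Pfkp, a phosphofructokinase isoform (0.52, 0.0175), and the lactate transporter Slc16a3 (0.61, 0.0453). The falls were Pfkfb2 (-0.50, 0.0402) and Phkg1 (-0.67, 0.0145). Without BCAA-free TAC replicate 3 no glycolysis gene rose and 1 fell, and Slc16a3 and Pfkfb2 were called in 3 and 4 of the 12 fits that left out 1 library, Pfkp in 11 and Phkg1 in all 12.

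The 12 leading falls were small beside the leading rises. Their log2 fold changes differed between diets by -0.13 to 0.69, where those of the 12 leading rises differed by -2.47 to -0.13. Slc41a3, a magnesium transporter (chromosome 6, 90604725 to 90646412), read 4235, 4552 and 5783 in sham and 2864, 1893 and 2105 in TAC samples on the control diet, and 3225, 2528 and 3897 in sham and 1584, 2098 and 1863 in TAC samples on the BCAA-free diet. No TAC sample reached a sham sample of its diet, and the average of -0.94 ± 0.13 had an adjusted p of 0.00465. Kcna1, a voltage-gated potassium channel, read 149, 162 and 106 in sham and 85.8, 42 and 80.8 in TAC samples on the control diet. It read 169, 148 and 139.6 in sham and 79.4, 118 and 73.3 in TAC samples on the BCAA-free diet, an average of -0.91 ± 0.19 (adjusted p = 0.0144). Ano10, a member of the anoctamin family, read 1307, 1665 and 1869.9 in sham and 802, 573 and 670.1 in TAC samples on the control diet and 1881, 1536 and 1949 in sham and 1345, 1326 and 995 in TAC samples on the BCAA-free diet. Its average was -0.90 ± 0.11 (adjusted p = 0.00296), from -1.24 ± 0.16 on the control and -0.55 ± 0.16 on the BCAA-free diet, a difference that missed the threshold (adjusted p = 0.0726).

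Dusp18, a dual-specificity phosphatase, read 1703, 1937 and 1882 in sham and 1410.1, 905 and 1166 in TAC samples on the control diet, and 2615, 2567 and 2938 in sham and 1522, 2148 and 1628 in TAC samples on the BCAA-free diet. Its log2 fold changes were -0.69 ± 0.15 and -0.63 ± 0.15, with an average of -0.66 ± 0.11 (adjusted p = 0.00637). Bcl2l11, the pro-apoptotic BH3 protein Bim, read 493, 577 and 489.8 in sham and 399, 294 and 304 in TAC samples on the control diet and 815, 820.1 and 877 in sham and 524, 732 and 516 in TAC samples on the BCAA-free diet. It averaged -0.59 ± 0.10 (adjusted p = 0.00836) without overlap on either diet.

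Asb4, a subunit of a ubiquitin ligase, averaged -0.62 ± 0.11 (adjusted p = 0.00935), and Sned1, a secreted matrix protein, averaged -0.81 ± 0.15 (adjusted p = 0.011). Epha4, an ephrin receptor, averaged -0.74 ± 0.16 (adjusted p = 0.0204), a call lost without BCAA-free TAC replicate 3 or control diet sham replicate 2. Ppargc1a, the coactivator of mitochondrial biogenesis, read 3634, 4277 and 5028 in sham and 3058, 2401 and 3099 in TAC samples on the control diet, and 3565, 3551 and 7079 in sham and 3151, 2661 and 2526 in TAC samples on the BCAA-free diet. BCAA-free sham replicate 3 stood far above the other 2 of its group, and the call was lost without control diet sham 2 or 3, control diet TAC 2 or BCAA-free TAC 2 or 3, and with the GC and length trend removed (adjusted p = 0.0889).

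Med12l (-0.72 ± 0.17, adjusted p = 0.0228) and the imprinted noncoding RNA Airn (-0.63 ± 0.15, 0.0253) also fell. Airn overlaps Igf2r on the opposite strand, and Med12l spans P2ry12 and its neighbours, so their counts may hold reads of those genes. The same holds for Igfbp7 with Polr2b, Angptl7 with Mtor, Mfap4 with Mapk7, Timp1 with Syn1, Zyx with Epha1, Csf1r with Hmgxb3, Acadsb with Fgfr2 and Sned1 with Mterf4, which overlap in the annotation. The call of Med12l was lost without BCAA-free TAC 3, BCAA-free sham 2 or control diet sham 2, and that of Airn without BCAA-free TAC 2 or 3, BCAA-free sham 1 or 3, control diet TAC 2 or control diet sham 1.

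**Figure D4:**
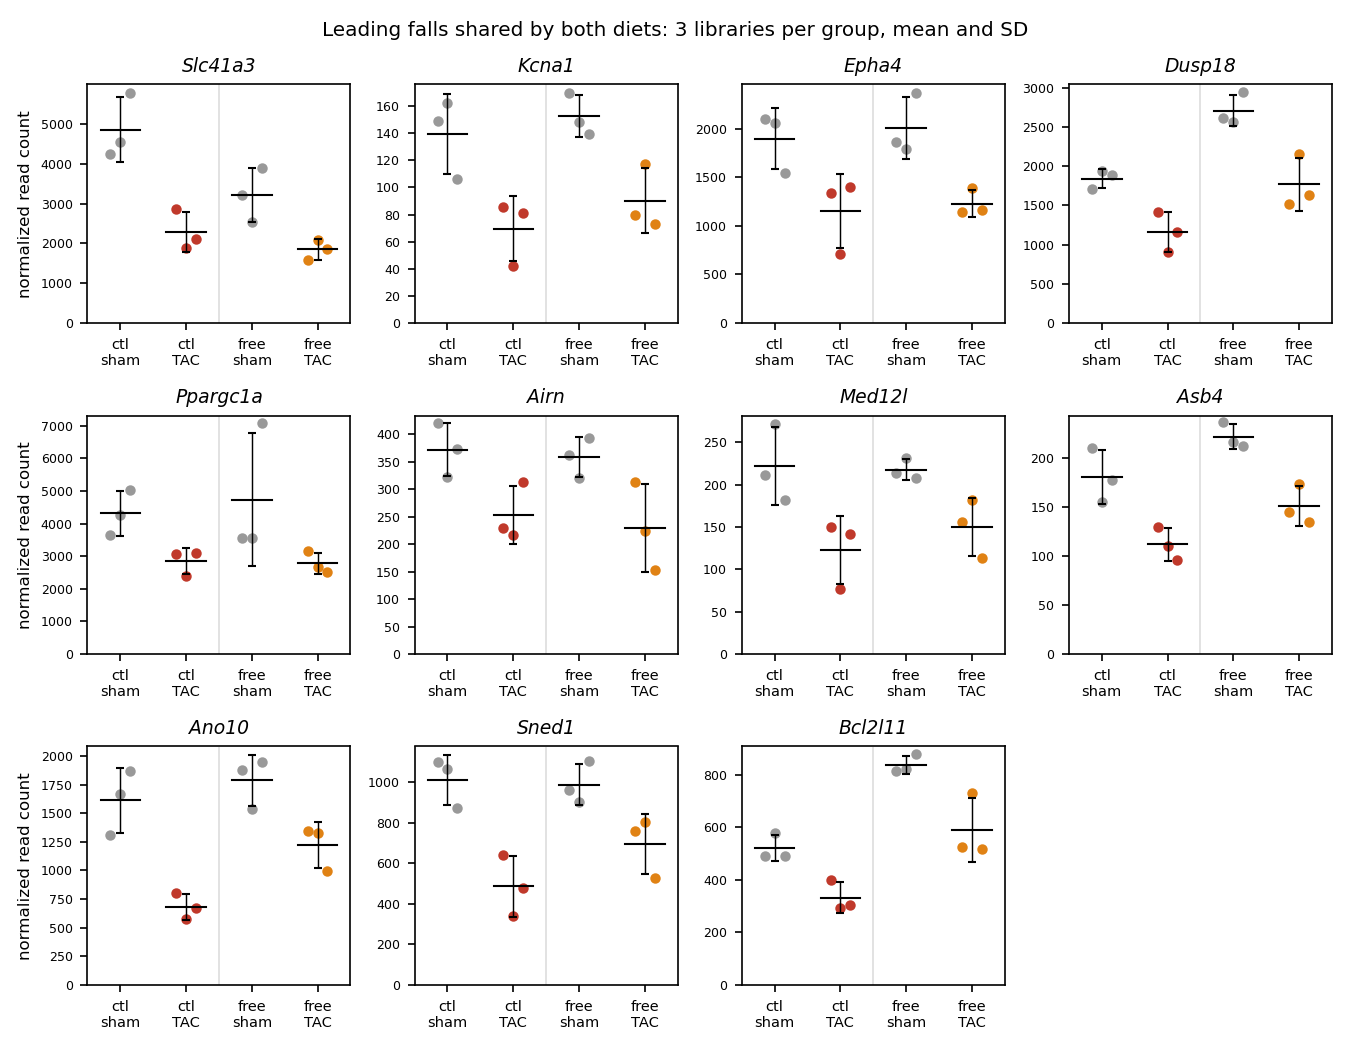
Normalized read counts of 11 leading falls in each of 3 libraries per group, with the mean and SD; ctl is the control diet and free the BCAA-free diet, and each panel has its own vertical axis from 0. TAC points lie below the sham points of the same diet in every panel, as the choice of leading genes required. BCAA-free sham replicate 3 is high for Ppargc1a (7079).

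Clock genes changed on both diets, and 4 of 19 measured genes were called. Per2, a repressor of the circadian clock (chromosome 1, 91415982 to 91459324), read 83.5, 131 and 193 in sham and 298, 310.4 and 277 in TAC samples on the control diet, and 647, 958 and 482 in sham and 1464, 1159 and 1147 in TAC samples on the BCAA-free diet. TAC lay above sham on both diets, by 1.19 ± 0.28 and 0.90 ± 0.28, with an average of 1.05 ± 0.20 (adjusted p = 0.0139). Arntl, which encodes the activator BMAL1, read 949, 928 and 1046 in sham and 726, 649 and 679 in TAC samples on the control diet, and 545, 318 and 903 in sham and 132, 182 and 152 in TAC samples on the BCAA-free diet. Its fall averaged -1.15 ± 0.19 (adjusted p = 0.00911), with -0.51 ± 0.28 on the control and -1.80 ± 0.28 on the BCAA-free diet, and the groups did not overlap on either. Its partner Clock (-0.54 ± 0.082, adjusted p = 0.00498) fell as well. Per2, Arntl and Clock were called in all 12 fits that left out 1 library. Because the labels give no hour of collection, its part in these changes was not tested.

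Calls with the same sign in the stress and cell cycle lists stand beside a share of 8.24% of all genes tested. Of 26 immediate early and stress genes limma called none with the same sign on both diets, against 2 rises at an unadjusted p under 0.05 and none by edgeR or DESeq2. In the unfolded protein response list the chaperone Hspa5 fell (-0.31, 0.04) and Crispld2 rose (0.37, 0.03), of 22 genes. Of 25 genes of the NRF2 and antioxidant list the glutathione transferases Gstm1 (-0.53, 0.00637) and Gsta4 (-0.37, 0.0484) fell and the extracellular superoxide dismutase Sod3 rose (0.52, 0.0169). In the cell cycle list Ccnd1 rose (0.42, 0.0264) and Cenpf fell (-0.45, 0.0355), of 32 genes. Some of these averages came mostly from the control diet. On the control and the BCAA-free diet Gsta4 was at -0.71 and -0.019, Cenpf at -0.88 and -0.022 and Crispld2 at 0.64 and 0.094. Of the 7 genes named in this paragraph Gstm1 was called in all 12 fits that left out 1 library.

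How many genes were called depended on single libraries. With 1 library left out, the number called with the same sign on both diets was between 328, without BCAA-free TAC replicate 3, and 1902, without control diet sham replicate 3. It was 552 and 983 without replicates 2 and 1 of BCAA-free TAC, and 759, 581 and 703 without replicates 1, 2 and 3 of BCAA-free sham. On the control diet it was 1601, 704 and 1066 without TAC replicates 1, 2 and 3, and 707 and 770 without sham replicates 1 and 2. A core of 298 genes (1.98%), 220 up and 78 down, was called in every one of these fits, and 287 of them (1.9%) also with the GC and length trend removed. Scaling to library totals alone gave 1051 rises and 259 falls, with the median of all genes on the control diet moved from -0.0096 to 0.14.

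**Figure D5:**
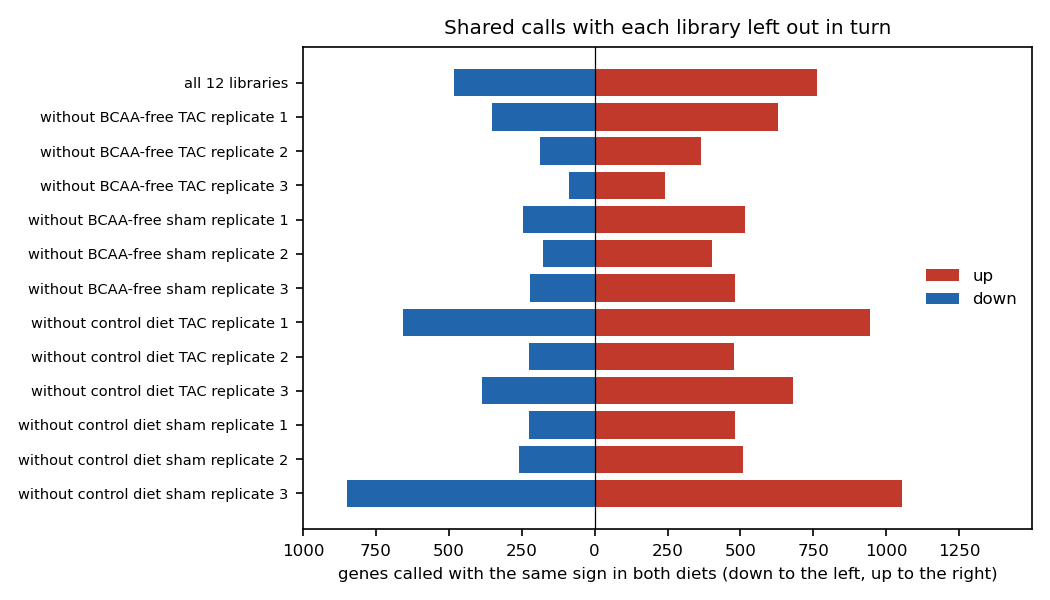
Number of genes called with the same sign on both diets, up to the right (red) and down to the left (blue), with all 12 libraries and with each library left out in turn. The total runs from 328 without BCAA-free TAC replicate 3 to 1902 without control diet sham replicate 3, against 1244 with all libraries.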

How the data were processed

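The authors deposited 1 table per pair of groups; the 2 tables of TAC against sham were used, with 6 libraries each and no library in common. The deposited signal is a gene read count divided by 1 size factor per library, and every value was a whole multiple of its library's smallest step within 0.01 of a read, so the counts could be recovered. The authors' log2 fold changes and p-values, per the file headers, were used for 1 count. The submitters' processing notes name DESeq2, Subread 1.5.2, STAR 2.5.2b and Trimmomatic 0.36, and the builds mm10 and GRCm38, per the labels without their roles.

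Values plus 1 were taken to log2 and fitted with limma 3.58.1 (R 4.3.3, intensity trend, robust variances, statmod 1.5.0) to 4 group means over 12 libraries, with Benjamini-Hochberg adjustment over 15088 genes. On counts simulated with the same change on both diets in 200 of 15088 genes, the fit recovered 84% of 2-fold and 96% of 4-fold changes. Changes that differ between diets and outlying libraries were not simulated, so these shares do not carry over to them. Genes were called at an adjusted p under 0.05. The members, lists and tests were chosen with earlier results of these data known. Leading genes are the 12 rises and 12 falls with the largest smaller change of the 2 diets, among genes called with the same sign, separated on both diets, with a mean value from 100 and a symbol that is no gene model. In each of 44 lists up to 4 members of smallest p were eligible to be named, and others named in a list were chosen after their values were seen. A few genes under these rules are not reported here. Alternatives were other scalings, filters and pseudocounts, edgeR 4.0.16, DESeq2 1.42.0 and voom on recovered counts, the replicate number as a block, GC and length trends, and each library left out. Positions, length and GC content come from GENCODE M21 (99.8% of genes matched), promoters from RefSeq.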

Additional observations from a re-analysis of the deposited data

Results flagged for a closer look

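For 25 of the genes named by rule, the TAC effects on the 2 diets differed by the test of the difference in the 12-library limma fit (adjusted p under 0.05, as for 8.72% of all genes tested). Values below are the log2 fold change on the BCAA-free diet minus that on the control diet. The difference was negative, with the smaller rise or a fall on the BCAA-free diet, for the matrix genes Aspn (-1.66), Fbn1 (-1.48), Col4a1 (-1.26), Col6a3 (-1.13) and Col4a2 (-1.06). It was negative too for the muscle gene Xirp2 (-1.72), the activin subunit Inhba (-1.39), Prrg3 (-1.30), Creb5 (-1.24), Kit (-1.12), Fam102b (-1.11), Ifit2 (-0.999), Slc7a5 (-0.92), Sorl1 (-0.91), Entpd1 (-0.81), Mcam (-0.63) and C1s1 (-0.47). It was positive for Cebpb (2.20), Rap1gap (1.25), Il17d (1.23), Phkg1 (1.00), Dexi (0.90), Cenpf (0.86), Rxrg (0.67) and Sdhc (0.61). Of these, Cebpb, Creb5, Prrg3, Sorl1, Fbn1, Dexi, Entpd1, Fam102b, Rap1gap and Sdhc had opposite signs on the 2 diets and are outside the shared response. The others had the same sign, which can hold with almost no change on 1 diet. Il17d, for example, was at 0.0068 on the control and 1.24 on the BCAA-free diet.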

How the results depend on the processing

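The average effect called 3152 genes by limma-voom with quality weights, 2766 of them with the same sign, against 1356 and 1244. At an absolute average of at least 1 there were 128 and 127, and 298 were called in every fit that left out 1 library. Genes called by both separate fits numbered 54, 10 with the GC and length trend removed, 181 by the authors' adjusted p in their deposited tables and 1 by the larger of the 2 p-values in the 12-library fit. The difference between diets was called for 1316 genes, 2117 by DESeq2 and 450 with the GC and length trend removed. With 1 library left out the counts ran from 343 to 2049 for the average, 328 to 1902 with the same sign, 778 to 1403 for genes separated on both diets, 1 to 70 for both separate fits, 246 to 1743 for the difference and 8 to 10 for the markers; apart from fewer samples, the cause was not tested. By DESeq2 the same-sign count was 1787, by edgeR 1262. With the replicate number as a block the counts were 1389 for the average, 1252 with the same sign, 66 by both separate fits and 1591 for the difference. The labels do not say that replicate numbers pair samples: deviations from group means correlated between same-numbered samples at -0.17 to 0.19 over 18 pairs and between others at -0.22 to 0.25 over 36, and not every sample correlated best with its own number. No named gene with a call reversed its average direction under any alternative run. The separation of groups after removal of the trends, the larger of the 2 p-values, the every-fit count and the list counts under other settings were chosen after seeing the data. Depth does not limit the leading genes, but at the lowest values, such as Igfbp2 in sham, single reads set the level.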
